A study of Rattus norvegicus with 31 samples.

Results

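The members described here are the genes that build and use the microtubule and neurofilament tracks of the axon, measured in motor neurons of the rat tail before and after transection of the spinal cord. They are the probe sets whose single gene symbol in the platform annotation names a tubulin, a neurofilament subunit, Map1a, Map1b, Map2 or Mapt, a stathmin, a numbered kinesin, a kinesin light chain, a dynein heavy, intermediate or light chain, or a dynactin subunit, with Tubb2b left out. This rule took 74 of 12913 probe sets tested and 58 of 9769 genes named by a single symbol, and 11 of these genes had more than 1 probe set. A further 6 probe sets match the pattern but name several genes at once (the Tuba1a, Tuba1b and Tuba1c set, the Dynll1 set, 3 sets that name Kif1b beside other genes, and the Dctn3 set) and were left out by the rule, so that the tubulin alpha-1 genes, Dynll1, Kif1b and Dctn3 were not analysed here. By role there were 7 probe sets for alpha and beta tubulins, 5 for gamma-tubulin and its ring complex, 3 for neurofilaments, 8 for microtubule-associated proteins, 1 for a stathmin (Stmn2), 8 for kinesin-1, 12 for other kinesins, 10 for kinesins of cell division or microtubule disassembly, 5 for dynein-1 chains, 6 for dynein light chains, 4 for dynein-2 chains and 5 for dynactin.

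Microtubules are polymers of alpha- and beta-tubulin dimers that run the length of the axon, and neurofilaments, made of the light, medium and heavy subunits Nefl, Nefm and Nefh, fill the space between them and set the axon's calibre. Kinesins carry cargo outward along the microtubules, and cytoplasmic dynein-1, which needs the dynactin complex, carries cargo back to the cell body. Motor neurons have very long axons and depend on both directions of transport, and inherited defects of neurofilament, kinesin-1, dynein and dynactin genes cause motor or sensory-motor neuropathies. After a cut of its own axon a motor neuron is known to raise tubulins and lower neurofilaments. In this study the spinal cord was transected above the motor neurons, which removed the descending input. Whether their own axons stayed whole was not tested.

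Each array came from 1 adult male Wistar rat. Motor neurons of the tail were filled with Fluoro-Gold from the muscle and the peritoneum and cut out by laser from frozen sections of the sacral cord, and their RNA was pooled within the animal and amplified in 2 rounds. The 4 Control animals were uninjured, and complete transection at the S2 segment with removal of a short piece of cord had been made 2 days (Spi-2, 6 animals), 7 days (Spi-7, 5 animals), 21 days (Spi-21, 8 animals) or 60 days (Spi-60, 8 animals) earlier. The arrays of Control, Spi-2 and Spi-7 were made for the present study and those of Spi-21 and Spi-60 for an earlier one, so that in a comparison of Spi-21 or Spi-60 with Control the study and the time after injury cannot be told apart. Comparisons of Spi-2 and Spi-7 with Control, of Spi-7 with Spi-2 and of Spi-60 with Spi-21 stay within 1 study.

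The median log2 value of an array lay between 5.95 and 6.10 in all 31 arrays. Of 7 motor neuron markers 5 were measured: in Control animals Prph read 12.10 ± 0.44, Slc5a7, the choline transporter, 11.54 ± 0.29, Ret 11.04 ± 0.13, Slc18a3 7.25 ± 0.37 and Isl1 5.75 ± 0.19 (mean log2 value ± SD, n = 4), and Chat and Mnx1 were not analysed here. After injury Slc5a7 fell by 1.18 at day 2 (limma adjusted p = 0.0128), by 1.11 at day 21 (0.0095) and by 1.06 at day 60 (0.0112), with -1.04 at day 7 (0.0729). Prph was called higher at all 4 times, by 0.59 to 0.79, and Ret, Slc18a3 and Isl1 were not called in any contrast with Control. Slc18a3 did pass the limma F-test over the 5 groups (FDR = 0.00558), with changes of -0.38, -0.26, 0.02 and 0.67 at days 2, 7, 21 and 60 (day 60 adjusted p = 0.0646).

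Markers of other cell types moved with the injury. Those of microglia and macrophages, 9 genes that were all measured, had a sum on the linear scale that ran from 442 to 528 over Control animals, from 861 to 1939 over Spi-2, from 602 to 1528 over Spi-7, from 429 to 2048 over Spi-21 and from 560 to 2138 over Spi-60, and 4, 1, 2 and 3 of the 9 were called higher at days 2, 7, 21 and 60 and 0 lower. Of 7 astrocyte markers 6 were measured, and their sum ran from 3302 to 6980 over Control, from 5495 to 8096 over Spi-2, from 3692 to 7738 over Spi-7, from 3152 to 7805 over Spi-21 and from 4477 to 9788 over Spi-60. Among them Gfap, the filament protein of reactive astrocytes, was higher by 2.45 at day 2 (limma adjusted p = 0.000461), by 1.34 at day 21 (0.02) and by 1.83 at day 60 (0.00211), with 1.33 at day 7 (0.0967), and Slc1a3 was lower at day 21 by -0.94 (0.0338). Of 7 oligodendrocyte markers 6 were measured, with sums from 2226 to 5402 over Control, from 1836 to 3193 over Spi-2, from 1739 to 3336 over Spi-7, from 1590 to 2823 over Spi-21 and from 1935 to 4320 over Spi-60. Mbp, a protein of myelin, fell by 2.14 at day 2 (6.12e-05), by 1.66 at day 7 (0.00351) and by 1.28 at day 21 (0.00414), and Mog and Mal were lower at days 21 and 60. The 1 endothelial marker measured of 5, Flt1, was not called. In pooled RNA, fewer cells of a type and less RNA per cell cannot be told apart. The log2 difference between the 3′ and 5′ Gapdh control sets, which grows where RNA is short at its 5′ end, also moved with the groups: Control arrays ran from 1.80 to 2.50, Spi-2 arrays from 2.30 to 3.38, Spi-7 arrays from 2.38 to 3.33, Spi-21 arrays from 1.13 to 3.54 and Spi-60 arrays from 2.99 to 3.97. Within Spi-21, replicates 1 to 3 (3.29, 3.54 and 2.90) lay above the other 5 (1.13 to 2.76).

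The sequences just upstream of 5 members are given. Tubb6 had the largest change of the 74, and Dctn1, Dctn2, Dync1h1 and Dync1li2, subunits of 1 transport machine, were called higher at day 60. Those day 60 calls were lost with the Gapdh 3′ minus 5′ difference as a covariate, as given below. They were 2 of 5 dynactin and 2 of 5 dynein-1 probe sets, at a day when 7.2% of all probe sets were higher. Whether so few probe sets differ from that share was not tested. The lowest day 60 changes in the dynactin and dynein-1 sets were -0.45 and -0.41. Each is the 250 bases before the annotated start, on the plus strand of the rat assembly GRCr8 (RefSeq), written 5′ to 3′: chr18:63213037-63213286 for Tubb6, chr4:117241473-117241722 for Dctn1, chr7:64977216-64977465 for Dctn2, chr6:135436228-135436477 for Dync1h1 and chr19:538177-538426 for Dync1li2. Capitals mark the GC box GGGCGG, the TATA box TATAAA and the CCAAT box, each searched on both strands.
Tubb6: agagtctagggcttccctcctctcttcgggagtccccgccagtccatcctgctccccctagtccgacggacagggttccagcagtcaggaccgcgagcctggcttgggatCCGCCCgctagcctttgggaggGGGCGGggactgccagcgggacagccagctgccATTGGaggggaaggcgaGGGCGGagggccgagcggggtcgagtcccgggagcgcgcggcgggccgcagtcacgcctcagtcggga
Dctn1: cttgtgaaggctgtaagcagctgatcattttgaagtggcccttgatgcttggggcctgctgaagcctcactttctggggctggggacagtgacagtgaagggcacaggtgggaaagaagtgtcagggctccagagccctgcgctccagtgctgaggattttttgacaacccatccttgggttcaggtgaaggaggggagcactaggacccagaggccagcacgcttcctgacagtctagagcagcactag
Dctn2: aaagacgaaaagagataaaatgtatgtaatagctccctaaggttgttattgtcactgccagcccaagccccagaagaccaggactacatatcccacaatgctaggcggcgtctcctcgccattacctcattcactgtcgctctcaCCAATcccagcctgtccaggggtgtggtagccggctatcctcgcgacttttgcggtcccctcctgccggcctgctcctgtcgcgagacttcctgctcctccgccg
Dync1h1: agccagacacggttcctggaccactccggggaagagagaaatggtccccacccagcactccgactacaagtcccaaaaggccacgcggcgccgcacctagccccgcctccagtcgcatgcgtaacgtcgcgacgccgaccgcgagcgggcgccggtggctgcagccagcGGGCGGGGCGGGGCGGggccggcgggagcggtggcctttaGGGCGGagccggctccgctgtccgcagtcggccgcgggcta
Dync1li2: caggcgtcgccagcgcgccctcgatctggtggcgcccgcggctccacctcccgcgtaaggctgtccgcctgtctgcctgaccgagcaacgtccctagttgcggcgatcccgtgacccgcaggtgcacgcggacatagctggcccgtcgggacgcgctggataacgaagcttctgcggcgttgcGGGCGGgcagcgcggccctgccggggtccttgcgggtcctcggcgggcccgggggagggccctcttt

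Tubb6 held 3 GC boxes and 1 CCAAT box in a window of 71.2% G and C, Dync1h1 held 4 GC boxes, of which the first 3 overlap each other, Dync1li2 held 1 GC box, Dctn2 held 1 CCAAT box, and the Dctn1 window held none of the 3 motifs. RefSeq windows were found for 48 of the 58 genes, and a GC box was present in 58.3% of them against 32.4% of all 27457 windows, a CCAAT box in 41.7% against 34.3% and a TATA box in 16.7% against 13.1%. The 27457 windows outnumber the 9769 genes named by a single symbol here, so they take in genes from which no member could be drawn. Whether the difference in GC boxes belongs to the members was not tested. These matches describe letters in a window and were not tested as binding sites.

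Over all times together, the share of members that changed was close to that of all probe sets. In the F-test over the 5 groups 13 of the 74 members passed (limma, FDR under 0.02), which is 17.6% of them beside 16.2% of all probe sets. The 13 were Tubb5, Tubb6, Map1b, Map2, Mapt, Kif5b, Kif12, Kif18b, Dync1h1, Dctn1, Dctn2, Dctn5 and Dctn6, so that 4 of the 5 dynactin probe sets were among them. At day 2, 4 members were higher than in Control and 4 lower (limma adjusted p under 0.05), that is 5.41% in each direction, where the background over all probe sets was 3.9% higher and 4.98% lower. At day 7, 2 members were higher (2.70%, background 0.914%) and 0 lower (background 1.67%). At day 21, 5 were higher (6.76%, background 5.94%) and 3 lower (4.05%, background 10.7%), and at day 60, 7 were higher (9.46%, background 7.2%) and 0 lower (background 9.89%). By unadjusted p under 0.05 the members lower at days 7 and 60 numbered 4 and 5 (5.41% and 6.76%, beside 8.96% and 16.6% of all probe sets), so that the counts of 0 hold for the adjusted p alone. The median change of the 74 was -0.03, -0.00, 0.02 and 0.02 on the log2 scale at days 2, 7, 21 and 60, beside -0.00, -0.00, 0.01 and 0.00 over all probe sets. The 4 comparisons share their Control animals and are not independent of each other.

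**Figure D1:**
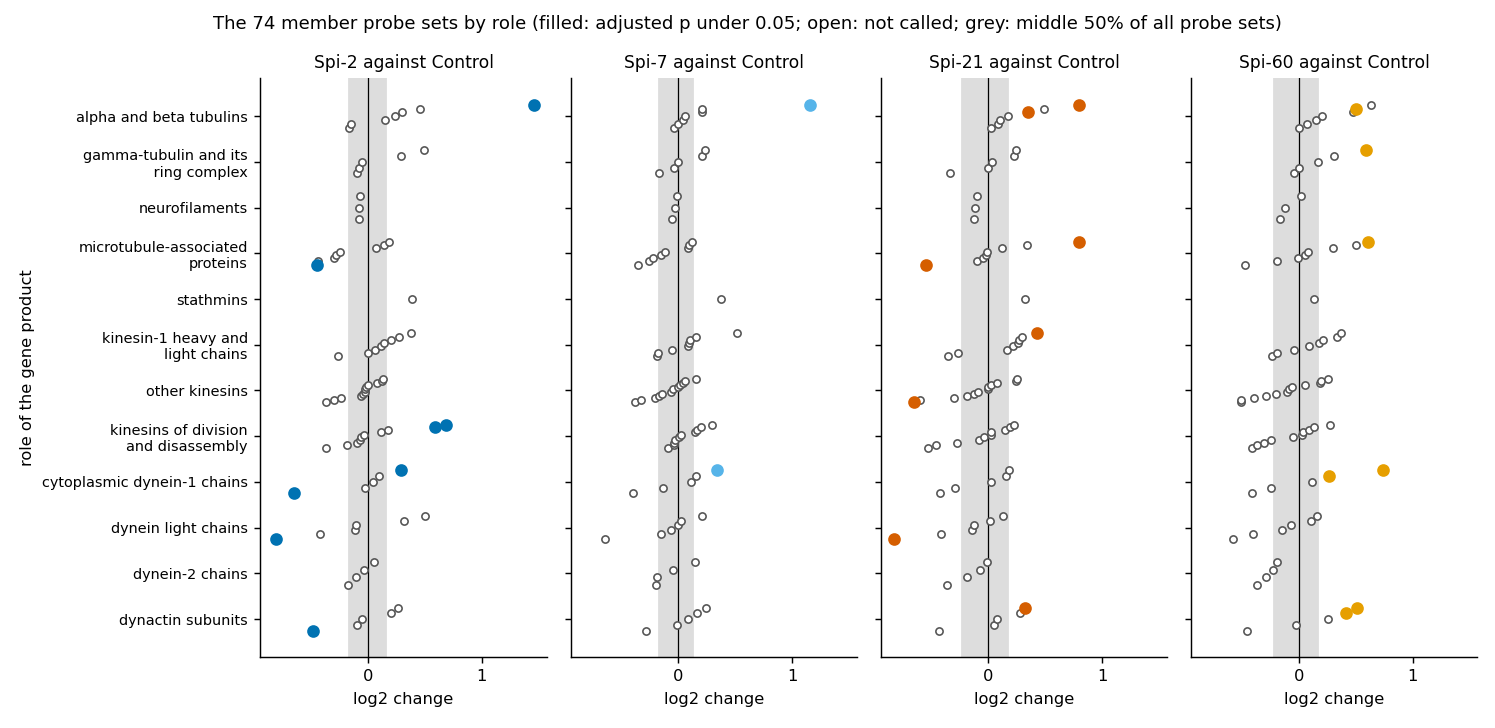
Log2 change against Control (x axis) of the 74 member probe sets, grouped by role (y axis), with 1 panel for each day. Filled points had an adjusted p under 0.05, open points were not called, and the grey band spans the middle 50% of all probe sets: Tubb6 stands farthest to the right at days 2 (1.45) and 7 (1.16), and the 3 neurofilament probe sets lie close to 0 in every panel.

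Tubb6, a beta-tubulin made in many cell types, rose most. Its log2 values were 5.13, 4.56, 4.91 and 4.98 in the Control animals, and in Spi-2 the lowest was 5.51, the median 6.33 and the highest 7.41. The 5 Spi-7 animals read 6.72, 6.26, 6.08, 5.97 and 5.25. The Control readings lie low on the scale of the array, where the median over all probe sets was about 6. Every animal at days 2 and 7 lay above every Control animal, while at day 21 (4.85 to 5.82) and day 60 (4.86 to 6.09) the values overlapped the Control range and 5 of 8 animals lay above it at each. The change was 1.45 ± 0.28 (SE) at day 2, a 2.74-fold higher level (limma adjusted p = 0.00114), and 1.16 ± 0.29 at day 7 (adjusted p = 0.0239). At days 21 and 60 it was 0.48 ± 0.26 at both, with adjusted p of 0.208 and 0.221. The call at day 2 held in all 39 alternatives, with adjusted p of at most 0.0127. The call at day 7 was lost without Control replicate 2 (0.0944) or 3 (0.0672), without Spi-7 replicate 1 (0.0813) or 2 (0.0621), and with the Gapdh 3′ minus 5′ difference as a covariate (0.0969). At day 2, 4 of 9 microglial markers and Gfap were called higher and Mbp lower, as given above. The other astrocyte markers measured were not called at that day, with changes from -0.52 (S100b) to -0.08 (Aqp4). The part of these cells in the Tubb6 result was not tested.

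Tubb3, the neuronal beta-tubulin, and Tubb5, a widely expressed one, were first called higher at day 21. Tubb3 read 8.62, 9.31, 9.31 and 9.54 in Control, and 9.52 (lowest), 9.63 (median) and 10.72 (highest) at day 21. Replicates 1 to 3 of Spi-21 (10.72, 10.67 and 10.65) stood apart from the other 5 (9.52 to 9.64). The change at day 21 was 0.80 ± 0.23 (limma adjusted p = 0.0188), and without those 3 arrays it was 0.39 (adjusted p = 0.225). The call was also lost without Control replicate 1 (0.104), the lowest Tubb3 value of all, and when only Control and Spi-21 were fitted (0.0727). At day 60 Tubb3 ranged from 9.45 to 10.34 with a median of 9.74, a change of 0.63 ± 0.23 that missed the threshold (limma adjusted p = 0.0583). At days 2 and 7 it ranged from 9.07 to 9.96 and from 9.18 to 9.68, overlapped Control and was not called. Tubb3 did not pass the F-test over the 5 groups.

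In Tubb5 the Control values were 8.80, 8.92, 8.76 and 9.09. Spi-21 (lowest 8.95, median 9.24, highest 9.43) overlapped them, and Spi-60 (lowest 9.12, median 9.43, highest 9.56) did not. The change was 0.34 ± 0.10 at day 21 (limma adjusted p = 0.0178) and 0.50 ± 0.10 at day 60 (adjusted p = 0.000992), against 0.15 at day 2 and 0.06 at day 7, neither called. The day 21 call was lost without Spi-21 replicates 1 to 3 (adjusted p = 0.125), without Control replicate 1 (0.0617) or 3 (0.0754) and with only the groups compared (0.0653). A second Tubb5 probe set was not called in any contrast, with changes of 0.45, -0.00, 0.08 and 0.21. Between Spi-60 and Spi-21, within 1 study, the first set differed by 0.16 (95% CI -0.01 to 0.32).

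The remaining tubulins passed no contrast with Control. Tubb2a, a beta-tubulin abundant in neurons, read 13.49 ± 0.13 in Control and changed by 0.24 at day 2 (95% CI 0.02 to 0.45), 0.21 at day 7, 0.17 at day 21 and 0.00 at day 60 (-0.20 to 0.21), with adjusted p from 0.174 to 0.989. Tubb4b (11.73 ± 0.16 in Control) had changes from -0.16 to 0.16 and Tuba4a (9.37 ± 0.19) from -0.15 to 0.10. Of the gamma-tubulin genes, which nucleate microtubules, Tubg1 was not called (changes -0.17 to 0.31), and Tubgcp6 of the ring complex rose at day 60 by 0.59 ± 0.17 (limma adjusted p = 0.0175). In Tubgcp6 the Control values (7.37, 7.35, 7.04 and 7.33) lay below all day 60 values (lowest 7.45, median 7.71, highest 8.48), and the call was lost without Control replicate 3, the lowest (adjusted p = 0.0797).

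Microtubule-associated proteins moved at different times. Map1b, which binds microtubules in growing and mature axons, was lower at day 2 on its brightest probe set: Control animals read 13.25, 13.29, 13.24 and 13.43, and Spi-2 ranged from 12.41 to 13.19 with a median of 12.83. The groups did not overlap, and neither did Control and Spi-7 (12.99, 13.20, 13.09, 12.81 and 13.12). The fall was -0.45 ± 0.11 at day 2 (limma adjusted p = 0.0121), -0.26 ± 0.12 at day 7 (adjusted p = 0.274, not called), and the change was -0.02 and -0.00 at days 21 and 60. With only Control and Spi-2 fitted (0.0789), or with quantile normalization added (0.149), the day 2 call was lost. The part of the glial markers that moved at day 2 was not tested here either. The other Map1b sets changed by -0.29 and -0.24 at day 2, not called. One of them was lower at day 21 (-0.54 ± 0.18, adjusted p = 0.0362), where the other 2 changed by -0.02 and 0.12, and that call was lost in 10 of 39 alternatives, without Control replicate 2 (0.215), 3 (0.0514) or 4 (0.0501), Spi-21 replicate 1 (0.0689), 3 (0.0564) or 6 (0.0612), or Spi-21 replicates 1 to 3 (0.101) among them.

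Map2, the microtubule-associated protein of dendrites, rose at day 21. Control animals read 4.95, 4.39, 4.81 and 5.58 and Spi-21 5.33 (lowest), 5.61 (median) and 6.59 (highest), and 5 of the 8 Spi-21 animals lay above all Control animals. The change was 0.80 ± 0.20 (limma adjusted p = 0.00715), and 0.50 ± 0.20 at day 60 (adjusted p = 0.0794), beside 0.07 and 0.12 at days 2 and 7. Without Spi-21 replicates 1 to 3 the day 21 change was 0.59 (adjusted p = 0.0581), and without Control replicate 2, the lowest, adjusted p was 0.0591. These readings lie low on the scale of the array, where the median over all probe sets was about 6.

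Map1a, a partner of Map1b in mature neurons, rose at day 60. Control values were 7.53, 7.39, 7.23 and 7.07, below all 8 Spi-60 values (lowest 7.64, median 7.90, highest 8.14). The change was 0.61 ± 0.17 (limma adjusted p = 0.0146), and adjusted p was 0.0612 without Control replicate 4. At day 21 replicates 1 to 3 (8.03, 8.03 and 8.48) stood above the other 5 (6.96 to 7.58), and the change over all 8 was 0.34 (adjusted p = 0.177). Set against Spi-21 within 1 study, Spi-60 was higher by 0.27 (adjusted p = 0.447), and by 0.59 ± 0.11 without Spi-21 replicates 1 to 3 (adjusted p = 0.00488). The 5 Spi-21 arrays then left had a Gapdh 3′ minus 5′ difference of 1.13 to 2.76 and the Spi-60 arrays one of 2.99 to 3.97, so that without those 3 arrays the time and the 3′ difference cannot be told apart.

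Mapt encodes tau, the microtubule-associated protein of axons, and its 3 probe sets disagreed. The one that passed the F-test (FDR = 0.0046) had changes of -0.43 ± 0.19, -0.36 ± 0.19, -0.05 ± 0.18 and 0.30 ± 0.18 at days 2, 7, 21 and 60, none of them called against Control, and all 6 Spi-2 animals (7.05 to 7.43) lay below the Control animals (7.44 to 7.73). Against Spi-21, its Spi-60 value was higher by 0.35 (limma adjusted p = 0.316), and by 0.60 ± 0.14 without Spi-21 replicates 1 to 3 (adjusted p = 0.0251), where, as for Map1a, the arrays left do not overlap in the 3′ difference. The brightest set changed by -0.28, -0.15, -0.10 and 0.08, and the other by 0.19, 0.09, -0.01 and -0.47 (day 60 adjusted p = 0.0818), opposite in sign to the first at days 2, 7 and 60.

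**Figure D2:**
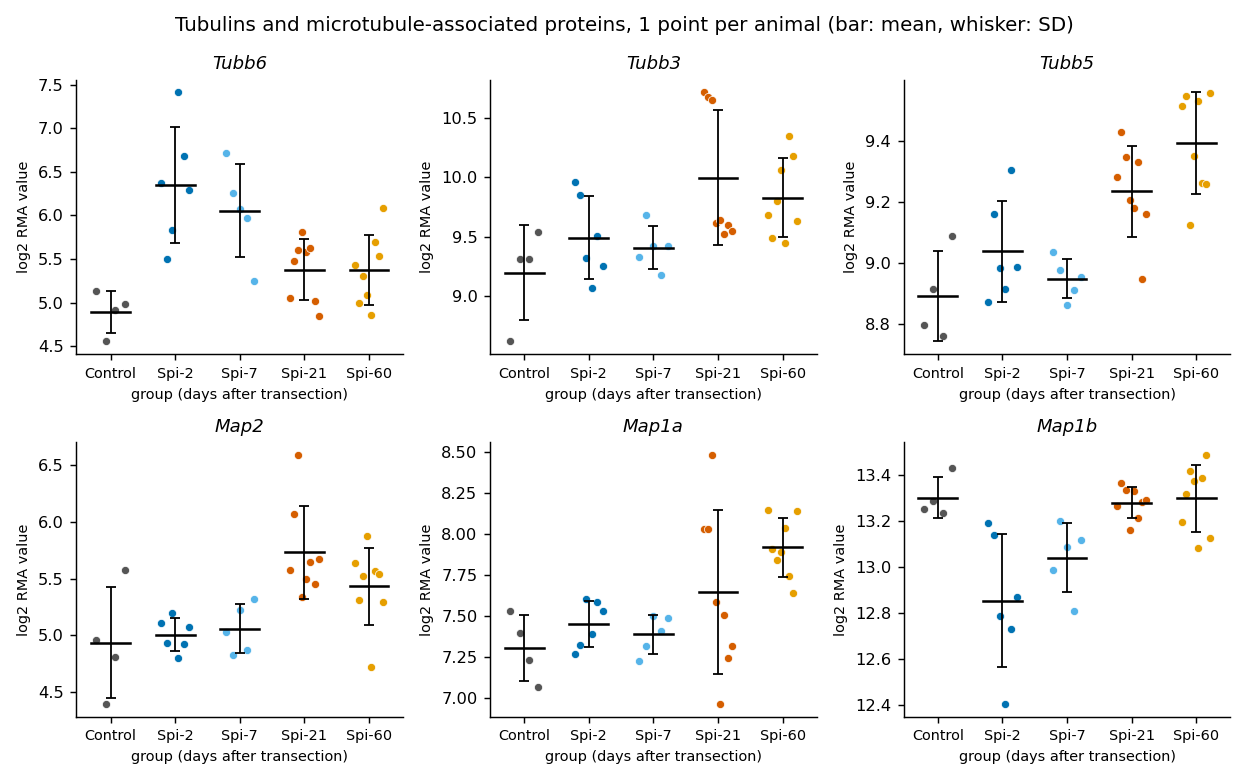
Log2 RMA values (y axis) of 3 tubulins and 3 microtubule-associated proteins in every animal of the 5 groups (x axis), with the group mean as a bar and the SD as whiskers; the y axes do not start at 0. Tubb6 is highest at days 2 and 7, Map1b (its brightest probe set) is lowest at day 2, and in Spi-21 the first 3 animals stand above the others in Tubb3 and Map1a.

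Neurofilament transcripts did not differ by a detectable amount at any time. Nefl, the light subunit, read 13.67, 13.82, 13.97 and 13.94 in Control and had medians of 13.78, 13.89, 13.71 and 13.78 at days 2, 7, 21 and 60. Nefm read 13.17, 13.33, 13.41 and 13.44 in Control, with medians of 13.26, 13.37, 13.19 and 13.20. Nefh read 13.96, 14.18, 14.26 and 14.34 in Control, with medians of 14.13, 14.26, 14.11 and 14.19. In each of the 3 genes the ranges of all groups overlapped. The 12 changes against Control ran from -0.16 to 0.02, and the most negative lower limit of their 95% confidence intervals was -0.36 (Nefm at day 60, 95% CI -0.36 to 0.03, limma adjusted p = 0.249). For Nefl the interval was -0.31 to 0.16 at day 2 and -0.34 to 0.10 at day 60, and for Nefh -0.29 to 0.15 and -0.19 to 0.23. These probe sets sit at the top of the array's scale (the highest of all deposited values, 14.37, is Nefh in Spi-60 replicate 2), and whether they were close to saturation was not tested.

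Stmn2, a growth-associated protein that binds tubulin dimers, read 9.41, 9.86, 9.69 and 10.22 in Control, and its medians were 10.14, 10.28, 10.12 and 9.89 at days 2, 7, 21 and 60. The groups overlapped at every time. Its changes were 0.38 ± 0.14, 0.38 ± 0.14, 0.32 ± 0.13 and 0.13 ± 0.13, with limma adjusted p of 0.0767, 0.169, 0.083 and 0.528. At the first 3 times the 95% confidence interval of the single gene lay above 0 (at day 2 from 0.10 to 0.66), although the change did not pass after adjustment over all probe sets.

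**Figure D3:**
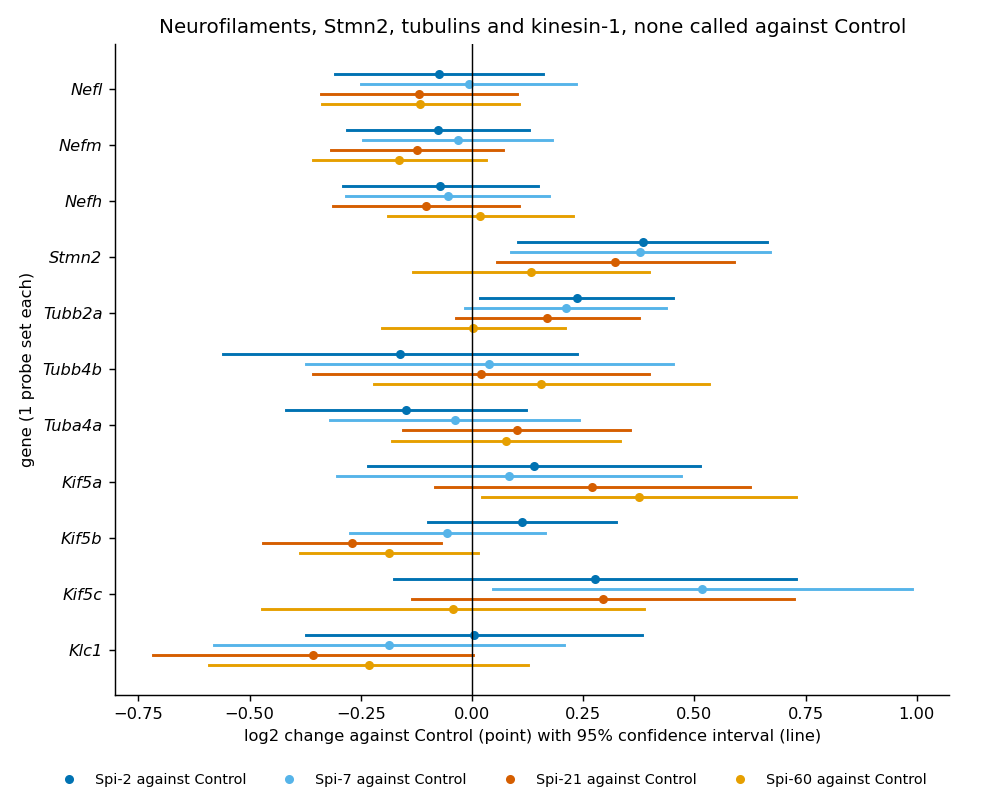
Log2 change against Control with its 95% confidence interval (x axis) for neurofilaments, Stmn2, tubulins and kinesin-1 genes that were not called in any contrast with Control (y axis, 1 probe set per gene), in 1 colour per day. The neurofilament intervals span 0 and stay within -0.36 and 0.24, whereas those of Kif5c and Tubb4b are wider.

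Of the 8 probe sets of kinesin-1, the main outward motor of axons, 1 was called against Control. This was Klc4, a light chain that links the motor to cargo, which was higher at day 21, where 5.94% of all probe sets were, and so few probe sets cannot be set apart from that background. Klc4 read 6.19, 6.29, 6.11 and 5.97 in Control and 6.18 (lowest), 6.54 (median) and 6.88 (highest) in Spi-21, with 7 of 8 animals above the Control range. The change was 0.42 ± 0.12 (limma adjusted p = 0.0164), and it was 0.37 ± 0.13 at day 2 (adjusted p = 0.06) and 0.34 ± 0.12 at day 60 (adjusted p = 0.0504), where no animal overlapped Control. The day 21 call was lost without Spi-21 replicates 1 to 3 (0.157), without Control replicate 4 (0.0636) and with only the groups compared (0.0558).

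Kif5a, the neuronal heavy chain of kinesin-1, changed by 0.14, 0.08, 0.27 and 0.38 at the 4 times, the last with a 95% CI of 0.02 to 0.73 and adjusted p = 0.136. Kif5c, the other neuronal heavy chain, changed by 0.28, 0.52, 0.30 and -0.04, with adjusted p = 0.263 at day 7. Kif5b, the heavy chain found in most cells, passed the F-test (FDR = 0.00998) with no contrast called: Control animals read 5.70, 5.95, 5.64 and 5.76 and Spi-21 5.26 to 5.81 with a median of 5.50, a change of -0.27 ± 0.10 (limma adjusted p = 0.0557). Its F-test call was lost in 4 alternatives. The brightest Klc1 set changed by 0.00, -0.19, -0.36 and -0.23, not called.

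Among the other transport kinesins, 1 of 12 probe sets was called against Control, a Kif16b set that was lower at day 21. At that day 10.7% of all probe sets were lower, and 1 of 12 cannot be set apart from that background. Kif16b moves early endosomes. Control animals read 5.23, 5.71, 5.66 and 5.92 and Spi-21 4.27 (lowest), 4.97 (median) and 5.68 (highest), with 6 of 8 below the Control range, a change of -0.65 ± 0.21 (limma adjusted p = 0.0342). The other 3 Kif16b sets changed by -0.60, 0.24 and -0.19 at that day, not called. The call was lost without Spi-21 replicates 1 to 3 (0.144), without Control replicate 2 (0.0911), 3 (0.0803) or 4 (0.115), without Spi-21 replicate 1 (0.0688) or 4 (0.0532), and with only the groups compared (0.0623). Kif3a and Kif3c, subunits of the heterotrimeric kinesin-2 motors, changed by -0.39 to 0.02 and -0.01 to 0.26 on their brightest sets, not called. Kif12 passed the F-test (FDR = 0.0158) with a lowest mean of 5.50 ± 0.13 at day 2 against 5.80 ± 0.07 in Control, and no contrast was called.

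Of the 10 probe sets for kinesins of cell division or microtubule disassembly, 2 rose at day 2, and the median change of the 10 was -0.05. At that day 3.9% of all probe sets were higher, and so few probe sets cannot be set apart from that background. Kif18b, which shortens microtubules at the mitotic spindle, read 5.32, 5.47, 5.28 and 5.74 in Control and 5.82 (lowest), 5.99 (median) and 6.43 (highest) in Spi-2. The groups did not overlap, and the change was 0.59 ± 0.13 (limma adjusted p = 0.00442), a call that held in all 39 alternatives. At days 7, 21 and 60 it was 0.29, 0.19 and 0.28, not called. Kif20a, a kinesin of cytokinesis, read 5.79, 5.56, 5.66 and 5.53 in Control and 5.68 to 7.55 with a median of 6.13 in Spi-2, where replicate 4 was the highest. Its change was 0.68 ± 0.21 (adjusted p = 0.037), and 0.43 without Spi-2 replicate 4 (adjusted p = 0.0671). That call was further lost without Spi-2 replicate 2 (0.0636) or 5 (0.0531), without any one of Control replicates 1 to 4 (0.0562, 0.0935, 0.0812 and 0.0916), with only the groups compared (0.186), with the 3′ covariate (0.153) and after quantile normalization (0.0503). The other 8 probe sets of the group, for Kif2a, Kif2c, Kif11, Kif20b and Kif23, ran from -0.37 to 0.18 at day 2 and were not called.

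Markers of dividing cells were read beside these genes. Of 6 listed, 3 were measured: Cdk1 rose at day 2 by 0.65 (limma adjusted p = 0.0192), Ccnb1 changed by 0.45 (adjusted p = 0.076) and Pcna by -0.01. The sum of their linear values ran from 348 to 514 over Control animals and from 286 to 915 over Spi-2 animals. The part of dividing, microglial or other glial cells in the Kif18b and Kif20a results was not tested.

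The inward motor changed subunit by subunit. Dync1h1, the heavy chain that holds the motor of dynein-1, rose at day 60: Control animals read 9.96, 10.06, 9.74 and 10.19, and Spi-60 10.20 (lowest), 10.57 (median) and 11.38 (highest), with no overlap. The change was 0.74 ± 0.18, a 1.67-fold higher level (limma adjusted p = 0.00485), beside 0.04, 0.16 and 0.18 at days 2, 7 and 21, not called. Against Spi-21, within 1 study, Spi-60 was higher by 0.55 (95% CI 0.26 to 0.85), the largest such difference of the 74, with an adjusted p of 0.103. In Spi-60 replicates 1, 2 and 5 (11.10, 11.19 and 11.38) stood above the other 5 (10.20 to 10.59), which also lay above the Control range. These 3 arrays had the largest Gapdh 3′ minus 5′ differences of Spi-60 (3.97, 3.82 and 3.72, the others 2.99 to 3.69), and they stood apart as well in Tubg1 (8.87, 8.80 and 8.85, the others 7.87 to 8.20) and Tubgcp6 (8.48, 8.08 and 8.32, the others 7.45 to 7.76).

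Dync1li2, a light intermediate chain that binds cargo adaptors, was the member called at most times. Control animals read 11.73, 11.45, 11.55 and 11.66, Spi-2 11.65 to 11.99 with a median of 11.92, the 5 Spi-7 animals 12.12, 11.97, 11.88, 11.79 and 11.91, and Spi-60 11.70 to 12.05 with a median of 11.85. The changes were 0.29 ± 0.09 at day 2 (limma adjusted p = 0.0397), 0.34 ± 0.09 at day 7 (adjusted p = 0.0471), 0.15 ± 0.09 at day 21 (adjusted p = 0.234) and 0.26 ± 0.09 at day 60 (adjusted p = 0.0329). Spi-7 alone did not overlap Control. All 3 calls lay close to the threshold: the day 7 call was lost in 21 of 39 alternatives (adjusted p of 0.0503 to 0.167), the day 2 call without Control replicate 2 (0.148), 3 (0.11) or 4 (0.0548) or Spi-2 replicate 1 (0.053), 2 (0.0625), 3 (0.074), 5 (0.0615) or 6 (0.0798), and the day 60 call without Control replicate 2 (0.145) or 3 (0.0948) or Spi-60 replicate 6 (0.0574) or 7 (0.059). The day 2 and day 60 calls were also lost with a replicate block (0.0729 and 0.0906), with only the groups compared (0.0954 and 0.0535) and with trended and robust variances (0.0616 and 0.051).

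Dync1i1, the intermediate chain of neurons that joins dynein to dynactin, was lower at day 2. It read 10.66, 10.62, 10.66 and 10.81 in Control and 9.56 (lowest), 10.02 (median) and 10.54 (highest) in Spi-2, and the 5 Spi-7 values (10.36, 10.43, 10.46, 9.96 and 10.25) also lay below Control. The change was -0.65 ± 0.20 at day 2 (limma adjusted p = 0.0333) and -0.39 ± 0.20 at day 7 (adjusted p = 0.352), then -0.29 and -0.24 with overlap. The call at day 2 was lost without any one of Control replicates 1 to 4 (0.07, 0.063, 0.0745 and 0.0893) or Spi-2 replicates 3 to 5 (0.0807, 0.0822 and 0.0672), after quantile normalization (0.118), with a replicate block (0.0978) and with only the groups compared (0.0535). Dync1i2, the intermediate chain of all cells, changed by 0.10, 0.11, -0.43 and -0.41, and Dync1li1 by -0.03, -0.13, 0.02 and 0.12, none of them called.

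Dynactin, the complex that makes dynein processive, held 4 of the 13 members of the F-test, which 16.2% of all probe sets passed. Whether its 5 probe sets differ from that share was not tested. The Dctn2 pass was lost in 11 of 38 alternatives, those of Dctn1, Dctn5 and Dctn6 in 0. Dctn1, the arm that touches the microtubule, read 11.11, 10.86, 10.84 and 11.18 in Control. Spi-21 had a median of 11.27 (range 11.12 to 11.42) and Spi-60 one of 11.53 (range 11.09 to 11.82), and at both times 7 of 8 animals lay above the Control range. The change was 0.51 ± 0.11 at day 60 (limma adjusted p = 0.00268) and 0.28 ± 0.11 at day 21 (adjusted p = 0.0843), beside -0.09 and -0.01 at days 2 and 7. Between Spi-60 and Spi-21 it was 0.23 (95% CI 0.04 to 0.42, adjusted p = 0.312).

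Dctn2, the subunit that ties the arm to the filament of dynactin, read 7.86, 7.92, 7.92 and 8.13 in Control and 8.15, 8.20, 8.25, 8.20 and 8.20 in Spi-7, with medians of 8.25, 8.25 and 8.39 in Spi-2, Spi-21 and Spi-60. Its changes, 0.26 and 0.24 at days 2 and 7, 0.32 ± 0.09 at day 21 (limma adjusted p = 0.0167) and 0.42 ± 0.09 at day 60 (adjusted p = 0.00247), were called at the last pair of times. The day 21 call was lost without Control replicate 1 (0.0612), 2 (0.0558) or 3 (0.0516), without Spi-21 replicates 1 to 3 (0.0883) and with only the groups compared (0.0595).

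Dctn5 and Dctn6 sit together at the pointed end of the filament, where cargo binds, and they did not move together. Dctn6 read 10.64, 10.86, 10.67 and 10.81 in Control and 9.81 (lowest), 10.21 (median) and 10.71 (highest) in Spi-2, with 5 of 6 animals below the Control range. It was lower at day 2 by -0.49 ± 0.13 (limma adjusted p = 0.0178) and had changes of -0.28, 0.07 and 0.26 afterwards, with the smallest FDR of the members in the F-test (0.000186). The day 2 call ended without Control replicate 2 (0.0629), with quantile normalization added (0.195) and with only the groups compared (0.0676). Dctn5 (F-test FDR = 0.00601) changed by 0.20, 0.09, -0.44 ± 0.19 and -0.45 ± 0.19, the last pair with adjusted p of 0.101 and 0.0894. Dctn4 changed by -0.05 to 0.17 and was not called.

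**Figure D4:**
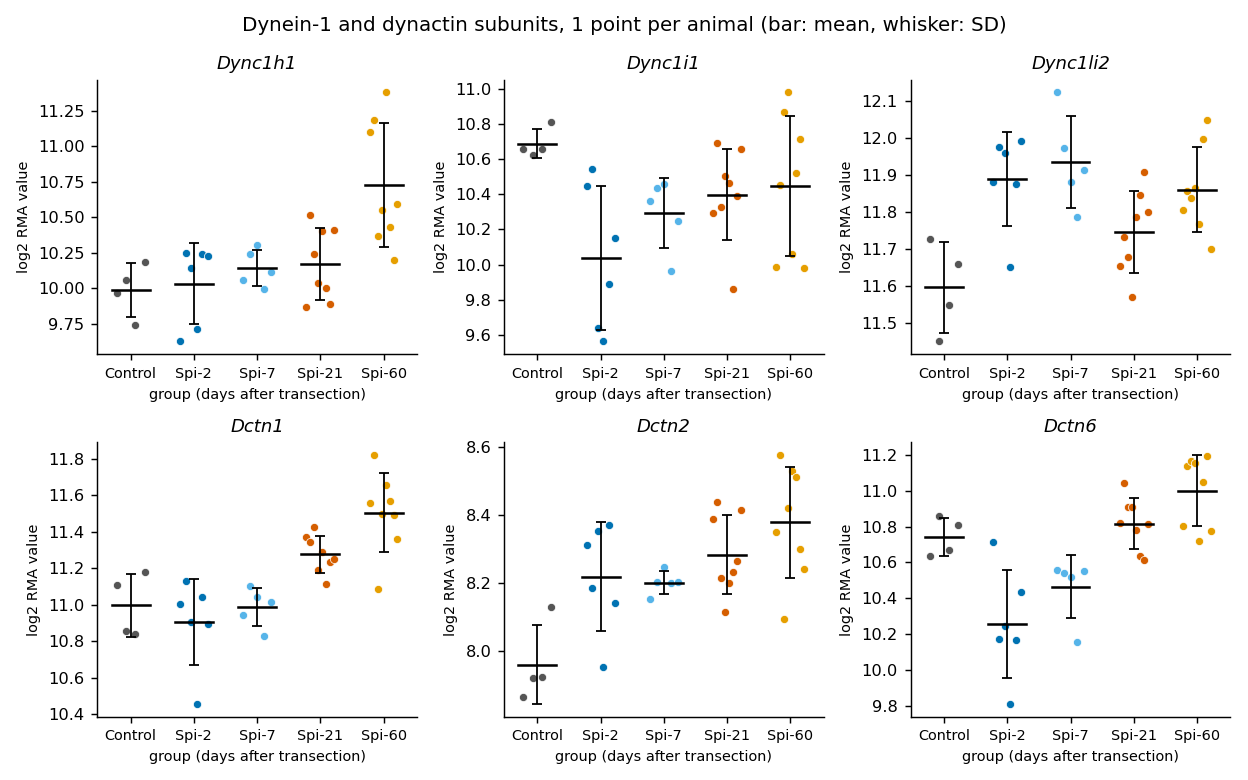
Log2 RMA values (y axis) of 3 dynein-1 chains and 3 dynactin subunits in every animal of the 5 groups (x axis), with the group mean as a bar and the SD as whiskers; the y axes do not start at 0. Dync1h1, Dctn1 and Dctn2 are highest at day 60, and Dync1i1 and Dctn6 are lowest at day 2.

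All 7 members higher at day 60 (Dync1h1, Map1a, Tubgcp6, Dctn1, Tubb5, Dctn2 and Dync1li2) lost their call when the Gapdh 3′ minus 5′ difference was a covariate. Their changes were then 0.58 ± 0.23 for Dync1h1 (limma adjusted p = 0.17), 0.14 ± 0.19 for Map1a (0.748), 0.44 ± 0.22 for Tubgcp6 (0.309), 0.36 ± 0.14 for Dctn1 (0.168), 0.36 ± 0.12 for Tubb5 (0.116), 0.39 ± 0.12 for Dctn2 (0.0767) and 0.36 ± 0.11 for Dync1li2 (0.0761). The Map1a change shrank most, from 0.61, the Dctn2 change stayed near 0.42, the Dync1li2 change grew from 0.26, and the SE of every one of the 7 was wider. Over all probe sets 930 were called higher and 1277 lower at day 60 without the covariate. In the fit with it, 267 were called in both directions together. The loss of calls was therefore not particular to the members. No Spi-60 array (2.99 to 3.97) shared the range of the Control arrays (1.80 to 2.50), so that between these groups day 60 and the 3′ difference cannot be told apart.

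**Figure D5:**
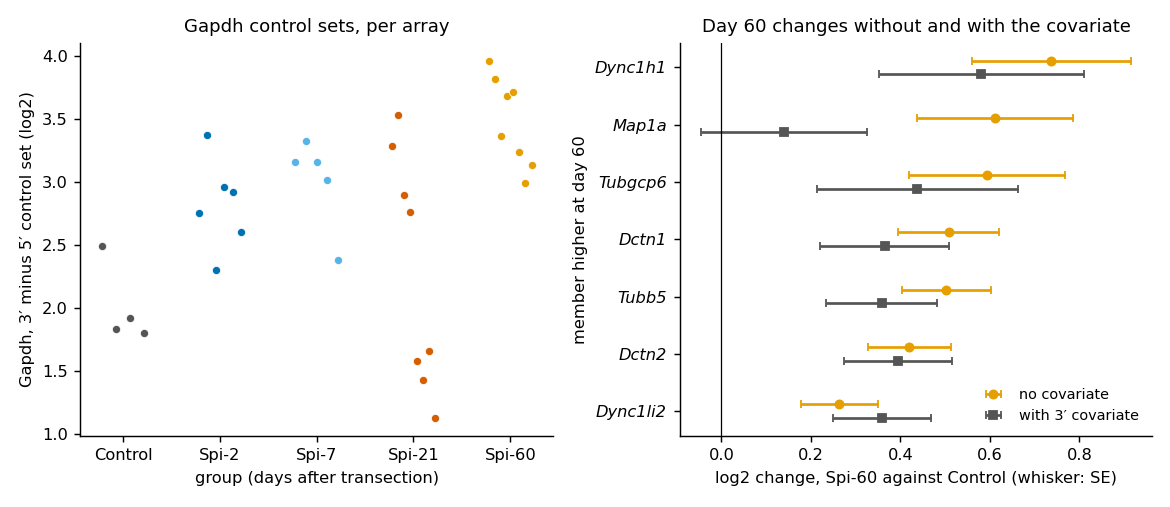
Left, the log2 difference between the 3′ and 5′ Gapdh control sets (y axis) for each array of the 5 groups (x axis): the Spi-60 arrays lie at 2.99 to 3.97 and the Control arrays at 1.80 to 2.50. Right, log2 change of Spi-60 against Control with its SE (x axis) for the 7 members higher at day 60, without and with that difference as a covariate: Map1a goes from 0.61 to 0.14 and Dctn2 from 0.42 to 0.39.

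The 6 probe sets for dynein light chains changed in both directions at each time. Dynlrb2, a roadblock light chain best known from ciliated cells, was lower at day 2 by -0.81 ± 0.23 (limma adjusted p = 0.0217) and at day 21 by -0.83 ± 0.22 (adjusted p = 0.00941), with -0.64 and -0.57 at days 7 and 60, not called. Its Control values, 6.12, 6.66, 7.64 and 6.14, had the widest SD of the 74 in Control (0.71), and Spi-2 (5.61 to 5.97) lay below them while Spi-21 (5.21 to 6.23) overlapped. Without Control replicate 3, the highest, adjusted p was 0.183 at day 2 and 0.0963 at day 21, and without Control replicate 2 it was 0.0538 at day 2. The day 2 call was also lost with a replicate block (0.0532) and with only the groups compared (0.063). Dynll2, a light chain shared with many other complexes, read 12.40 ± 0.21 in Control on its brightest set and changed by -0.10 to 0.16. None of the 4 probe sets for dynein-2, the motor of cilia, was called. All 4 had changes below 0 at day 21 (-0.36 to -0.01) and at day 60 (-0.36 to -0.19, median -0.26), and at days 2 and 7 they lay on both sides of 0 (-0.18 to 0.05 and -0.19 to 0.15).

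Within each study no member was called between the injured groups. Between Spi-7 and Spi-2, 0 of the 74 were called by limma (background 0%), with 1 higher and 5 lower at an unadjusted p under 0.05 (1.35% and 6.76%, beside 1.14% and 2.42% of all probe sets). Between Spi-60 and Spi-21, 0 of the 74 were called (background 0.0697%), with 6 higher and 2 lower at an unadjusted p under 0.05 (8.11% and 2.70%, beside 6.73% and 5.37%). Without Spi-21 replicates 1 to 3, Map1a and one Mapt set were called (2 members, beside 1.91% of all probe sets), in a comparison of arrays whose Gapdh 3′ differences do not overlap, as given above. The difference between Spi-7 and Spi-2 was -0.29 for Tubb6 (95% CI -0.83 to 0.24) and 0.19 for Map1b (-0.03 to 0.40).

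The other genes of the same pathways were read from a list of 73, of which 51 were measured. Called higher and lower, they numbered 1 and 4 at day 2 (3.9% and 4.98% of all probe sets), 1 and 0 at day 7 (0.914% and 1.67%), 3 and 5 at day 21 (5.94% and 10.7%) and 5 and 3 at day 60 (7.2% and 9.89%), and their median changes were -0.06, -0.05, -0.06 and -0.07. Prph, the intermediate filament peripherin that assembles with neurofilaments, was called higher at all 4 times, by 0.59, 0.78, 0.78 and 0.79 (limma adjusted p = 0.0484, 0.0246, 0.0044 and 0.00291), from 12.10 ± 0.44 in Control. The call at day 21 held in all 39 alternatives, that at day 2 was lost in 28, that at day 7 in 8, among them without any one of Control replicates 1 to 3 or Spi-7 replicates 1 to 3, and that at day 60 with the 3′ covariate. Actr1a, the filament protein of dynactin, was higher at day 21 by 0.50 ± 0.16 (adjusted p = 0.0292, lost in 6 alternatives) and at day 60 by 0.65 ± 0.16 (adjusted p = 0.00531, lost with the 3′ covariate). Mapre3, which binds growing microtubule ends, was higher at day 21 by 0.92 ± 0.21 (adjusted p = 0.00453, held in all 39 alternatives) and at day 60 by 0.86 ± 0.21 (adjusted p = 0.00617, lost with the 3′ covariate at 0.476). The other genes called higher at day 60 were Mapk8ip1, a kinesin-1 adaptor (0.59), and Map6 (0.45). All 8 genes of the list called at day 60 lost the call with the 3′ covariate (limma adjusted p of 0.106 to 0.606), as most probe sets called at that day did.

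Cdk5, a kinase of tau and neurofilaments, was lower at day 2 by -0.77 ± 0.19 (adjusted p = 0.011, held in all 39 alternatives). Ndel1, a regulator of dynein (-0.50), Camsap2, which caps microtubule minus ends (-0.47), and Tbce, a tubulin folding cofactor (-0.46), were lower at the same day and lost the call in 6, 9 and 6 alternatives. At day 21 Capza2 (-0.57), Bicd2, a dynein adaptor (-0.53), Rhot1, which links motors to mitochondria (-0.46), Camsap2 (-0.40) and Clasp2 (-0.30) were lower, and all 5 calls were lost without Spi-21 replicates 1 to 3 (adjusted p of 0.0854 to 0.251). At day 60 the lower genes were Spast, which severs microtubules (-0.87), Bicd2 (-0.40) and Mark3, a kinase of microtubule-associated proteins (-0.36).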

How the data were processed

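The data were Affymetrix rat genome arrays of amplified RNA from laser-cut motor neurons, 1 array per animal. The authors kept the probe sets that Ensembl annotates, corrected background, normalized the arrays, summarised probes by RMA, corrected once more, and deposited the outcome as log2 values for 12919 probe sets, from 0 to 14.37. No raw array was used, and the number of animals, not a read depth, limits the precision. Groups and replicate numbers came from the sample labels.

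From the deposited log2 values, a mean for each of the 5 groups was estimated over all 31 arrays, without covariates and without the 6 Affymetrix controls (limma 3.58.1, R 4.3.3). The moderated F-test was called at a Benjamini-Hochberg FDR under 0.02 and 6 two-sided contrasts at an adjusted p under 0.05, always adjusted over 12913 probe sets. Changes are given ± SE from limma and levels ± SD over animals. Replicates are separate animals. The fitting code was tested on simulated data. Levels of different probe sets cannot be compared, because probes bind with different strength.

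The members and the gene lists were chosen with earlier results of these data known. Genes are named by a rule: those with a set role in the pathway, up to 6 called members in each direction, by size of change, per contrast with Control, and the 10 members with the smallest F-test p. Where a gene had more than 1 probe set, its brightest was used unless the rule named another. Kif12 and the second sets of Tubb5, Mapt, Map1b and Kif16b are given because they passed the F-test or disagreed with a named set. Of the genes named by role, Tuba1a, Tubb4a, Stmn1, Stmn3, Stmn4, Klc2, Kif1a, Kif1b, Kif3b and Dynll1 have no member probe set and were not analysed here.

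The alternatives were a further quantile normalization, fits of only the groups compared, array quality weights, leaving out the dimmest 25% of probe sets (lower quantile 0.25), trended and robust variances, the Gapdh 3′ minus 5′ difference as a covariate, a replicate block, leaving out each array in turn, and leaving out Spi-21 replicates 1 to 3. No probe or protein sequence was used here.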

Additional observations from a re-analysis of the deposited data

Results flagged for a closer look

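In each group of 4 to 8 animals, the highest and the lowest value of each named probe set were compared with the rest of the group by Dixon's ratio, the gap to the nearest animal over the group's range. Of 195 sets of values tested, 10 passed the 95% limit, and chance passes about 1 in 20.

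In Spi-2, replicate 1 was low in Tubb4b (10.61, others 11.45 to 11.90, ratio 0.646), and replicate 4 was low in Dctn1 (10.46, others 10.89 to 11.13, ratio 0.648) and in Dync1li2 (11.65, others 11.88 to 11.99, ratio 0.658). In Spi-7, replicate 4 was low in Dctn6 (10.15, others 10.52 to 10.56, ratio 0.915), and replicate 5 was low in Dctn5 (7.83, others 8.59 to 8.81, ratio 0.777) and high in Mapt (7.76, others 7.05 to 7.24, ratio 0.733). In Spi-60, replicate 7 was high in Dynlrb2 (6.95, others 5.57 to 6.15, ratio 0.579) and in Kif16b (5.97, others 4.72 to 5.22, ratio 0.604). In Control, replicate 2 was high in Map1b (6.57, others 5.81 to 5.91, ratio 0.879) and replicate 3 was low in Tubgcp6 (7.04, others 7.33 to 7.37, ratio 0.887). The Control outliers touch calls given above: without them the Map1b set at day 21 had an adjusted p of 0.215 and Tubgcp6 at day 60 of 0.0797 (limma).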

How the results depend on the processing

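Of 38 calls of a member, 8 held under every alternative run, and over all calls and alternatives 1308 of 1466 results stayed past the threshold, 158 did not and 0 changed direction. Most alternatives drop 1 array, and dropping one outside the groups compared leaves the change of a contrast as it was. In those fits the direction could not change, so these counts overstate how hard the calls were tried. Further quantile normalization moved the median of all probe sets by under 0.1. Array quality weights raised the counts of members called to 34 in the F-test (13 without weights), 13 at day 2, 9 at day 7 and 15 at day 60, where the shares of all probe sets rose too, to 31.6%, 17.6%, 11.8% and 25.04%. Quantile normalization gave 5 at day 2 (against 8, with 8.12% of all probe sets called) and 13 at day 21 (against 8). Fits of only the groups compared gave 4 at day 2 (8.55% of all probe sets), 1 at day 7 and 2 at day 21. Where no share stands beside it, a count does not tell the members from the whole array. Trended and robust variances gave 1 at day 7, and the 3′ covariate 1 at day 7 and 0 at day 60. Without Spi-21 replicates 1 to 3 the counts were 1 at day 21, 11 at day 60 and 2 between Spi-60 and Spi-21 (5.27%, 19.9% and 1.91% of all probe sets). Leaving out 1 array at a time gave 10 to 20 in the F-test, 3 to 9 at day 2, 0 to 2 at day 7, 3 to 10 at day 21, 5 to 10 at day 60 and 0 in both comparisons of injured groups. The F-test calls of Kif12, Dctn2 and Kif18b were lost in 15, 11 and 8 alternatives. Apart from the number of samples or genes fitted, the cause was not tested.

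The replicate numbers did not pair the samples: same-numbered arrays of different groups had correlations of their deviations from -0.33 to 0.35 (median -0.04, 51 pairs) and other arrays from -0.37 to 0.45 (median 0.01, 327 pairs). With the replicate block 5 members were called at day 2 (7.15% of all probe sets) and 1 at day 7. The counts were 14 in the F-test (15.4% of all probe sets), 8 at day 21 and 9 at day 60.

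Probe sets near the top or the bottom of the scale understate a change, and an uncalled change is bounded only by its confidence interval.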
